A study of Mus musculus with 3 samples.

Results

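The 10 genes described here encode a ligand, receptors, receptor substrates, an inhibitory adaptor, kinases and a transcription factor of insulin and insulin-like growth factor (IGF) signalling: Igf2, Insr, Igf1r, Igf2r, Irs1, Irs2, Grb10, Akt1, Akt2 and Foxo1. They were chosen by gene symbol, and all 10 were found among the 21899 symbols of the expression table. RNA was sequenced from MIN6, a mouse insulinoma line that makes insulin and stands in for the pancreatic beta cell, in 3 libraries. The groups were cells transfected with a negative control siRNA (siNC), with an siRNA against the splicing factor SRSF1, also called ASF (siSRSF1), and with an siRNA against the splicing factor SRSF2, also called SC35 (siSRSF2), each with 1 library. The series sets each siRNA against the control. All groups share the line and the transfection, and MIN6 is a tumour line rather than a normal islet cell. With 1 library a group no test between groups was possible, no p-value is given, and each interval below is a 95% interval that covers counting error only.

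Insulin and the IGFs bind receptor tyrosine kinases, INSR and IGF1R, which phosphorylate the docking proteins IRS1 and IRS2. These recruit phosphoinositide 3-kinase, whose lipid product brings the AKT kinases to the membrane, and AKT then phosphorylates FOXO1 and keeps it out of the nucleus. In the beta cell, which secretes insulin and also carries its receptor, this route is known for its part in cell growth, survival and mass, with IRS2 as the substrate most often tied to it. Igf2, Igf2r and Grb10 are imprinted genes in the mouse.

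The libraries held 12688334 (siNC), 14478045 (siSRSF1) and 14682576 (siSRSF2) reads. Against siNC, Srsf2 had a ratio of 0.343 (0.308 to 0.381) in its own siRNA library and Srsf1 of 0.683 (0.652 to 0.716) in its own. The targeted genes were thus lower by different amounts. Srsf1 was also lower in siSRSF2, at 0.847 (0.811 to 0.884), while Srsf2 in siSRSF1 stood at 0.957 (0.884 to 1.04). The direct siSRSF1 to siSRSF2 ratio of Srsf1 was 0.807 (0.770 to 0.846). GC correction put the Srsf1 ratio of siSRSF1 to siNC at 0.748. Of 17 beta-cell markers, 17, 17 and 16 had at least 20 reads in siNC, siSRSF1 and siSRSF2, and the exception was the glucose transporter gene Slc2a2. Of 8 markers of other islet cells, 2, 3 and 2 had that many, with Gcg highest at 1494, 2016 and 2029 reads. Of 10 acinar and duct markers, the keratin gene Krt7 alone did, with 282, 659 and 313 reads, while Prss2, Cpa1 and Ptf1a had 0 reads in every library. Of 12 markers of stroma, immune cells and endothelium, Cd68 alone did, with 56, 232 and 55 reads.

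Sequence upstream of the annotated starts is shown first for the genes whose values stood out, since the deposited counts are per gene and do not separate starts. RefSeq promoter windows (GRCm38.p6) were found for 9 of the 10 genes, at 17 starts. Igf2 has 4 starts on the minus strand of chromosome 7, and the 200 bases before each lie at chr7:142666817-142667016, chr7:142661272-142661471, chr7:142658805-142659004 and chr7:142657497-142657696. They are printed in that order, 5′ to 3′, with capitals for the GC box letters GGGCGG on either strand.
Igf2 start 1: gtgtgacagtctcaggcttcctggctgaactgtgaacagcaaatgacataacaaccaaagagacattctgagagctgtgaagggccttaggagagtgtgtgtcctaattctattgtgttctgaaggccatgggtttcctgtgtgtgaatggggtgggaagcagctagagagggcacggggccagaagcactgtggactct
Igf2 start 2: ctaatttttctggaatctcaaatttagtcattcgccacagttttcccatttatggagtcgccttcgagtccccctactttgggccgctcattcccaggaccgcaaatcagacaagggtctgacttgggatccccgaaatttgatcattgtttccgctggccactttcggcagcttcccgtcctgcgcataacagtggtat
Igf2 start 3: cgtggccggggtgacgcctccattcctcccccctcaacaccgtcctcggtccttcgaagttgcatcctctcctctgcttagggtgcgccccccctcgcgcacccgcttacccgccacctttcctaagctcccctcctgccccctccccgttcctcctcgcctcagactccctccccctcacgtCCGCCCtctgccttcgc
Igf2 start 4: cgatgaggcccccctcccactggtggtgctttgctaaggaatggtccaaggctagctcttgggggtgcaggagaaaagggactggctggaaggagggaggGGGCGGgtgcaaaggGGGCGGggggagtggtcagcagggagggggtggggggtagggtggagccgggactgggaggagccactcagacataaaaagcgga

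The letters GGGCGG were searched on both strands in the 250 bases before each start, and 32.7% of 32851 annotated windows held them. Igf2 starts 3 and 4 held 1 and 2 matches, and starts 1 and 2 held none. Grb10 has 2 starts, at chr11:12037421-12037620 and chr11:12027972-12028171 for the 200 bases before each on the minus strand. The first held 5 matches, of which 3 lie in the printed bases and 2 of those overlap, and the second held none. Both genes thus have starts with and without the letters.
Grb10 start 1: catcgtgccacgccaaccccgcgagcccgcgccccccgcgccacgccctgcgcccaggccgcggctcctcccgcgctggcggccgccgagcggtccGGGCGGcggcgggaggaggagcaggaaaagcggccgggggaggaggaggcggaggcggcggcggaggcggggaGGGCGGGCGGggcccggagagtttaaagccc
Grb10 start 2: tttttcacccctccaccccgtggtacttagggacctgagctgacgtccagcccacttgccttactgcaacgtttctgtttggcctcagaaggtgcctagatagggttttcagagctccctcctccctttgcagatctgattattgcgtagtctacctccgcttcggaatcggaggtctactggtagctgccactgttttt

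Irs1 and Irs2, the receptor substrates, shared a rarer match. The letters CAAAACAA, known as an insulin response element core, were searched on both strands and stood in 2.21% of the same windows. Both genes held it once, on the opposite strand (TTGTTTTG, in capitals below, as is a GC box of Irs2), starting 33 bases before the Irs1 start and 38 bases before the Irs2 start. No other of the 17 windows held it, and Insr had no window to search. The forkhead letters GTAAACA, in 3.17% of all windows, were found once, before an Akt1 start. The printed windows lie at chr1:82291440-82291639 for Irs1 and chr8:11008930-11009129 for Irs2, both on the minus strand. A match of letters is a description and does not show that a factor binds there.
Irs1: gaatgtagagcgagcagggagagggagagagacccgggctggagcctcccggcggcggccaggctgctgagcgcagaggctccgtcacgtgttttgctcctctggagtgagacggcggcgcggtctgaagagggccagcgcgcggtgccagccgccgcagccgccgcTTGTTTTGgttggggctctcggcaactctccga
Irs2: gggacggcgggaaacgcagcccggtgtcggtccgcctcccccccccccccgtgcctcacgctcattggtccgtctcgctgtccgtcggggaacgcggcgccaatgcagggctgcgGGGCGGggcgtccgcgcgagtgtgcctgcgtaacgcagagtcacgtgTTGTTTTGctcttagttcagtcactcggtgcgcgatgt

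Per length, the clearance receptor was the most abundant of the 10 transcripts and the inhibitory adaptor the least, in every library. Levels are given as FPKM, reads scaled to gene length and library depth, as the authors deposited them. Igf2r stood at 71.9, 77.8 and 68.0 FPKM in siNC, siSRSF1 and siSRSF2, among the 520 highest genes in each library. Grb10 stood at 0.156, 0.182 and 0.0450 FPKM.

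In siNC the order between these was Akt1 (35.6), Akt2 (30.8), Irs2 (15.7), Igf2 (8.63), Igf1r (8.02), Insr (6.41), Irs1 (3.41) and Foxo1 (2.26). Counting intervals of neighbours in this order did not overlap, except those of Igf2 and Igf1r. The siSRSF1 library kept the order but for Igf2, which passed Irs2. The siSRSF2 library had the same order as siNC, with overlapping intervals for Akt1 and Akt2 and separate ones for Igf2 and Igf1r. These transcripts thus spanned over 2 orders of magnitude, and Igf2 and Irs2 alone exchanged places, in siSRSF1.

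**Figure D1:**
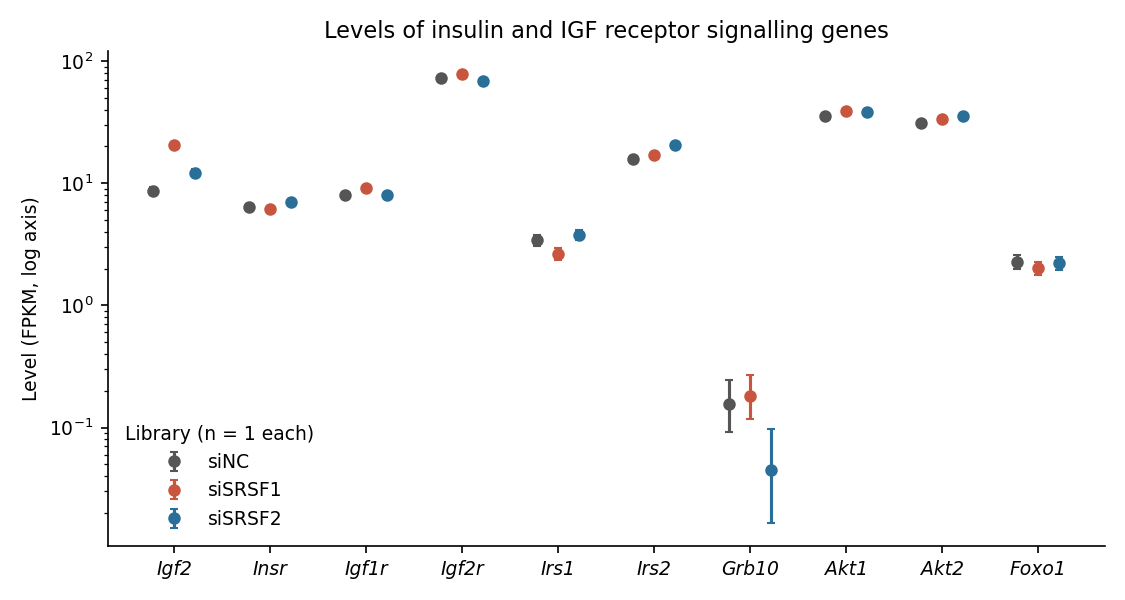
Levels of the 10 genes in FPKM (log axis) in the 3 libraries, 1 point per library, with bars for the exact Poisson 95% counting interval. Igf2 goes from 8.63 in siNC to 20.7 in siSRSF1, and Grb10 lies under 0.2 in every library.

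Igf2 was the one member called past 2-fold against the control; Grb10, with 18 reads in siNC and 6 in siSRSF2, fell under the minimum of 20 reads set for a call. Igf2 (ENSMUSG00000048583, GRCm38 chromosome 7, 142650766 to 142666816, minus strand) encodes IGF2, a growth factor that signals through IGF1R and INSR. It had 627 reads in siNC, 1713 in siSRSF1 and 1023 in siSRSF2, or 49.9, 119.5 and 68.3 CPM, a count scaled to library size. Both siRNA libraries were above siNC, and siSRSF1 was the highest.

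Against siNC, the Igf2 ratio was 2.40 in siSRSF1 (2.19 to 2.63) and 1.37 in siSRSF2 (1.24 to 1.52). The direct ratio of siSRSF1 to siSRSF2 was 1.75 (1.62 to 1.89). A gene was called when it reached 2-fold with an interval that excluded 1 and had 20 reads or more in either library of the pair. By this rule 1 of 10 members was called in siSRSF1 against siNC, beside 3.6% of the 11602 genes compared (2.4% higher and 1.2% lower), and Igf2 ranked 173 from the top. In siSRSF2 against siNC 0 of 9 compared members were called, beside 3.55% of 11611 genes (2.51% higher and 1.04% lower), and Igf2 ranked 1442. These shares are counts of 1 and 0 genes, and nothing particular to the group is read from them.

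The Cd68 and Krt7 counts were also highest in siSRSF1, and their part in the Igf2 value was not tested. The summed level of the 12 stroma, immune and endothelial markers was 5.41, 17.2 and 4.34 CPM, of which nearly all was Cd68. The fibroblast collagen genes Col1a1 (5, 11 and 6 reads) and Col3a1 (0 in every library) stayed at or near 0. Fewer cells with a transcript and less of it per cell cannot be told apart in these bulk libraries.

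The neighbouring gene on the same strand did not share the Igf2 ratio of siSRSF1 to siNC, but its siSRSF2 ratio was close to that of Igf2. Ins2, an insulin gene, has a span in the table that lies 11839 bases from that of Igf2. Ins2 had a ratio of 1.01 to siNC in siSRSF1 (1.00 to 1.01) and of 1.36 in siSRSF2 (1.35 to 1.36). The ratio of Igf2 to Ins2 reads per length was 0.000457 in siNC, 0.00109 in siSRSF1 and 0.000461 in siSRSF2. This ratio was therefore 2.38 times that of siNC in siSRSF1 (2.17 to 2.61) and 1.01 times in siSRSF2 (0.913 to 1.12), and it does not depend on the scaling between libraries. Gm49394, a gene model that covers Igf2 on the same strand, was listed with 0 reads in every library. Igf2os overlaps Igf2 on the other strand and was not analysed here, and the sources used here do not state whether counting used strand, so antisense reads cannot be told apart.

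The 5 genes whose pair of ratios to siNC lay closest to that of Igf2, over 3 libraries and among 10177 genes with 100 reads or more in a library, were Bloc1s4, Tnfrsf12a, Taf10, Rpia and P2rx3. Their distances on the log2 plane ran from 0.0403 to 0.137. Both ratios share siNC, so this likeness describes these libraries only. Bloc1s4, the closest, had just 44, 118 and 73 reads in siNC, siSRSF1 and siSRSF2. Without its siSRSF1 count, the highest for Igf2 as well, Bloc1s4 would not have been searched. For genes with so few reads, the limit of 100 therefore favours the pattern being matched.

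**Figure D2:**
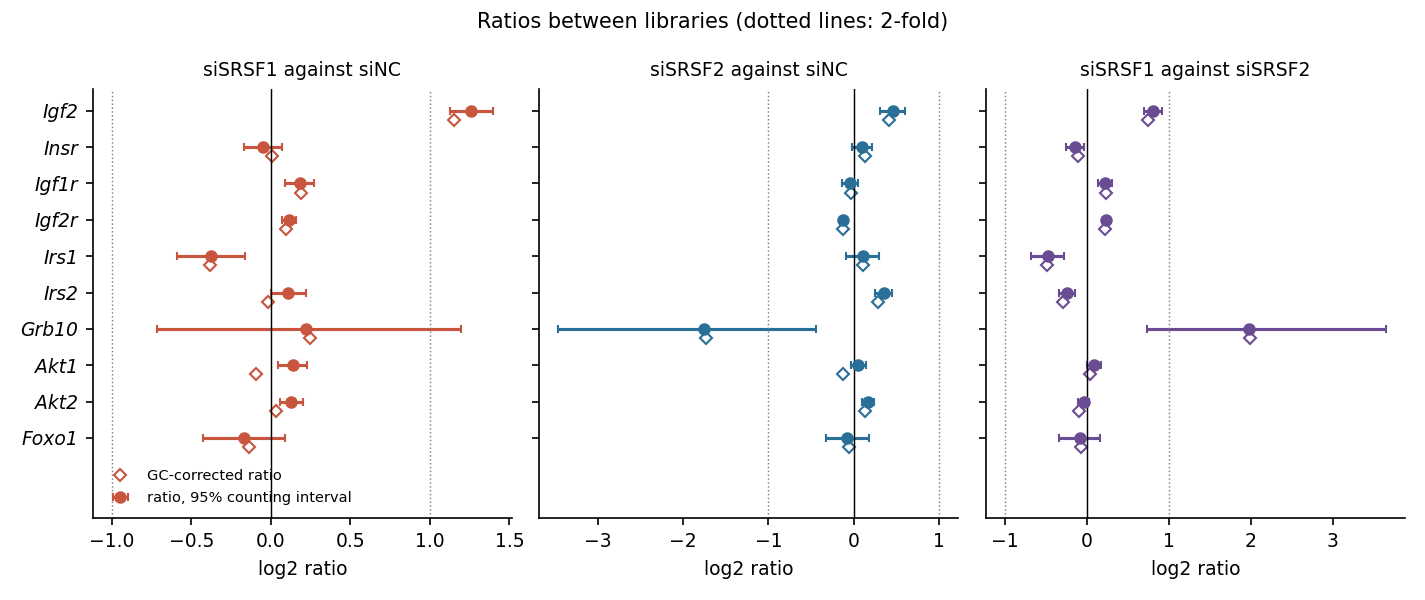
Log2 ratios of the 10 genes in the 3 comparisons, with 95% counting intervals, dotted lines at 2-fold and open symbols for ratios corrected for transcript GC content. Igf2 is past 2-fold in siSRSF1 against siNC and Grb10 in siSRSF1 against siSRSF2, while the siSRSF2 against siNC value of Grb10 rests on 18 and 6 reads and was not compared.

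The receptor genes had ratios near 1. Insr, the insulin receptor gene (ENSMUSG00000005534, chromosome 8, 3122061 to 3279617), had 1118 reads in siNC, 1233 in siSRSF1 and 1425 in siSRSF2. Its ratio to siNC was 0.967 in siSRSF1 (0.891 to 1.05) and 1.07 in siSRSF2 (0.989 to 1.16), and both intervals included 1, though GC correction put the second at 1.09 (1.01 to 1.18). Igf1r, the receptor for IGF1 and IGF2 (ENSMUSG00000005533, chromosome 7, 67952827 to 68233668), had 1709, 2209 and 1977 reads. Its ratio was 1.13 in siSRSF1 (1.06 to 1.21) and 0.971 in siSRSF2 (0.910 to 1.04). Correction for gene length put the siSRSF1 value at 1.21, just past the upper end of its interval.

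Between the receptor genes, the Insr to Igf1r ratio per length was 0.799 in siNC, 0.682 in siSRSF1 and 0.880 in siSRSF2. Igf1r thus exceeded Insr in each library, by the most in siSRSF1. The pair ratio in siSRSF1 was 0.853 times that in siNC (0.769 to 0.947) and 0.774 times that in siSRSF2 (0.702 to 0.855). In siSRSF2 it was 1.10 times that of siNC, with an interval that included 1 (0.994 to 1.22), which GC correction moved to 1.12 (1.01 to 1.24).

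Igf2r encodes the cation-independent mannose 6-phosphate receptor, which takes up IGF2 for breakdown in lysosomes and does not signal as a kinase (ENSMUSG00000023830, chromosome 17, 12682406 to 12769664). It had 8497, 10482 and 9290 reads. The ratio to siNC was 1.08 in siSRSF1 (1.05 to 1.11) and 0.918 in siSRSF2 (0.891 to 0.945). Without correction, the siRNA libraries thus lay on opposite sides of siNC by under 10%. Correction for gene length put the ratios at 1.13 and 0.924, the first past its interval. Airn, an antisense transcript, overlaps Igf2r and was not analysed here. The ratio of ligand to clearance receptor, Igf2 to Igf2r per length, was 0.120 in siNC, 0.266 in siSRSF1 and 0.179 in siSRSF2. Against siNC it was 2.21 times as high in siSRSF1 (2.01 to 2.44) and 1.49 times in siSRSF2 (1.34 to 1.66).

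The substrate genes parted in siSRSF1 against siNC. Irs1 (ENSMUSG00000055980, chromosome 1, 82233101 to 82291416) had 396 reads in siNC, 348 in siSRSF1 and 507 in siSRSF2. Its ratio to siNC was 0.771 in siSRSF1 (0.665 to 0.892), the lowest of the 10 members there, and 1.07 in siSRSF2 (0.940 to 1.23). Irs2 (ENSMUSG00000038894, chromosome 8, 10984681 to 11008458) had 1258, 1549 and 1908 reads. Its ratio was 1.08 in siSRSF1 (1.00 to 1.16), which correction for GC content put at 0.988, and 1.27 in siSRSF2 (1.19 to 1.37), corrected 1.22. Neither gene came near 2-fold, and the siSRSF1 to siSRSF2 ratios were 0.717 for Irs1 (0.624 to 0.824) and 0.848 for Irs2 (0.793 to 0.908).

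Per length, Irs1 stood at 0.218 of Irs2 in siNC, 0.155 in siSRSF1 and 0.184 in siSRSF2, so Irs2 was the more abundant of the pair in every library. Against siNC the pair ratio was 0.714 in siSRSF1 (0.605 to 0.842) and 0.844 in siSRSF2 (0.725 to 0.983). Correction for GC content gave 0.777 (0.658 to 0.916) and 0.886 (0.761 to 1.03), and the second interval then included 1. The pair ratio in siSRSF1 was 0.846 times that in siSRSF2 (0.724 to 0.987), which GC correction put at 0.876 (0.750 to 1.02).

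Grb10 encodes an adaptor that binds and restrains the insulin and IGF1 receptors (ENSMUSG00000020176, chromosome 11, 11930508 to 12038683). It had 18 reads in siNC, 24 in siSRSF1 and 6 in siSRSF2, or 1.43, 1.67 and 0.401 CPM, where 3 reads equal 0.239, 0.209 and 0.200 CPM. The siSRSF1 to siSRSF2 ratio was 3.93 (1.66 to 12.5), and Grb10 was the 1 of 10 members called there, beside 4.37% of 11705 genes (1.96% higher). It entered that comparison only through the 24 reads of siSRSF1. Against siNC the siSRSF1 ratio was 1.17 (0.608 to 2.29), and the siSRSF2 ratio of 0.298 (0.0909 to 0.736) fell under the minimum of reads. The transcript was near absent in all libraries, with 0.0243, 0.0294 and 0.00637 times the Insr level per length.

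The AKT kinase genes had ratios close to 1. Akt1 (ENSMUSG00000001729, chromosome 12, 112653821 to 112674884) had 1850, 2319 and 2287 reads, and its ratio to siNC was 1.10 in siSRSF1 (1.03 to 1.17) and 1.04 in siSRSF2 (0.976 to 1.10). The transcript of Akt1 has the highest GC content of the 10, at 59.7%, and GC correction turned both ratios below 1, to 0.937 and 0.920. Akt2 (ENSMUSG00000004056, chromosome 7, 27591552 to 27640826) had 2791, 3480 and 3726 reads, with ratios of 1.09 (1.04 to 1.15) and 1.12 (1.07 to 1.18). Corrected values for Akt2 were 1.02 and 1.10. Akt2 drives glucose uptake in muscle and fat and Akt1 body growth, as known from mice lacking either gene.

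Akt1 exceeded Akt2 per length in every library, by 1.15 in siNC, 1.16 in siSRSF1 and 1.07 in siSRSF2. Against siNC this ratio was 1.01 in siSRSF1 (0.928 to 1.09) and 0.926 in siSRSF2 (0.855 to 1.00). GC correction gave 0.915 (0.845 to 0.991) and 0.837 (0.773 to 0.906), both below 1. Foxo1, the transcription factor that AKT inactivates (ENSMUSG00000044167, chromosome 3, 52268336 to 52353221), had 249, 253 and 281 reads. Its ratios were 0.891 (0.745 to 1.07) and 0.947 (0.796 to 1.13), so no difference from siNC was detectable at this depth.

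**Figure D3:**
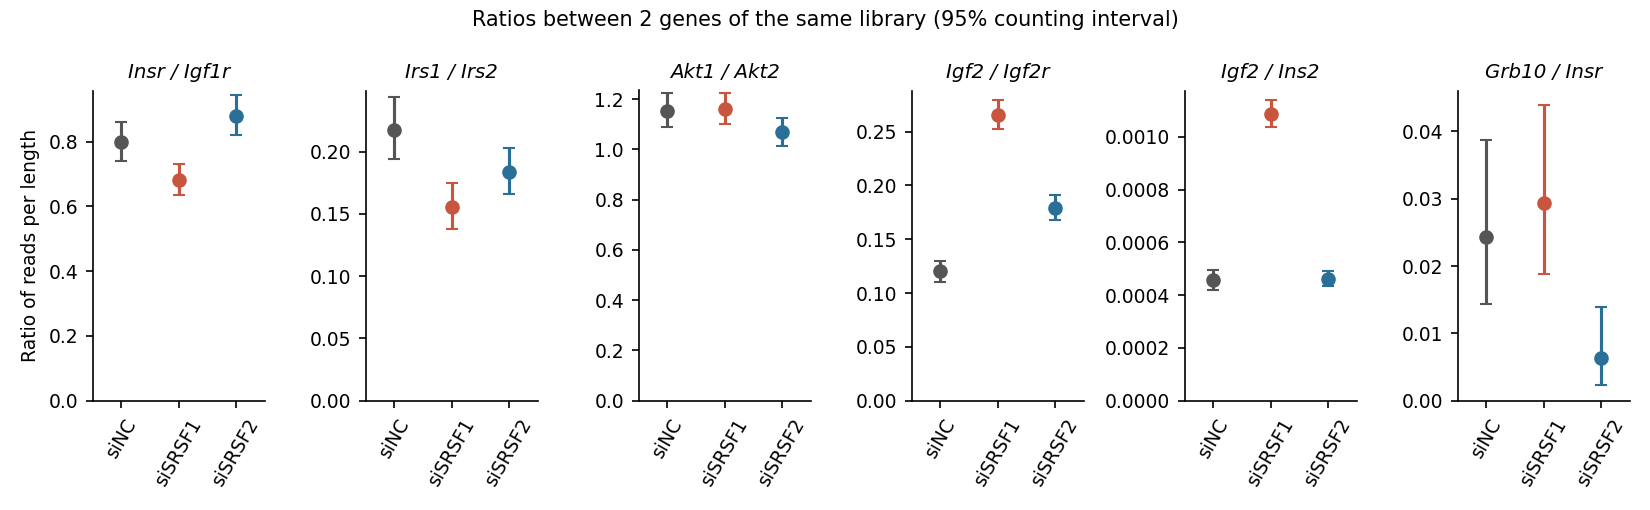
Ratios of reads per length between 2 genes of the same library, on axes that start at 0, with exact 95% counting intervals. The Igf2 to Igf2r and Igf2 to Ins2 ratios are highest in siSRSF1, and the Irs1 to Irs2 ratio is highest in siNC.

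Counted by interval alone, with no size asked for, 6 members lay above siNC in siSRSF1 (Igf2, Igf1r, Igf2r, Irs2, Akt1 and Akt2), Irs1 lay below, and 3 included 1. These 7 of 10 stand beside 52.7% of all genes compared (27.2% above and 25.5% below). In siSRSF2 the intervals of Igf2, Irs2 and Akt2 lay above 1 and that of Igf2r below, 4 of 9 beside 53.5% of genes (28.1% above and 25.4% below). Between siSRSF1 and siSRSF2, 4 members lay above 1 (Igf2, Igf1r, Igf2r and Grb10) and 3 below (Insr, Irs1 and Irs2), beside 58.1% of genes (29.0% above and 29.1% below). Grb10 entered this count only through its 24 reads in siSRSF1, the library where it was highest. Its siSRSF2 to siNC interval lay below 1, but with 6 and 18 reads it was not compared there. At 1.5-fold in place of 2-fold, 1 member was past the size rule in siSRSF1 against siNC (10.4% of genes), 0 in siSRSF2 against siNC (11.5%) and 2 in siSRSF1 against siSRSF2 (13.4%). The median log2 ratio of the members was 0.12 in siSRSF1 and 0.10 in siSRSF2, against 0.00 and 0.02 over all genes compared. GC correction moved the siSRSF1 median to 0.02 and left that of siSRSF2 at 0.11. In siSRSF1 it also left 3 members above (Igf2, Igf1r and Igf2r) in place of 6 and put 2 below (Irs1 and Akt1), with Irs2 and Akt2 then including 1. In siSRSF2 it put 4 above (Igf2, Insr, Irs2 and Akt2) and 2 below (Igf2r and Akt1). Between siSRSF1 and siSRSF2 it kept the same 4 above and put 3 below (Irs1, Irs2 and Akt2), with Insr then including 1.

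GC content matters here because ratios were higher at higher GC content across genes, which are not independent replicates. With compared genes in 10 equal bins by GC content, from the lowest bin to the highest, the median log2 ratio went from -0.14 to 0.23 in siSRSF1 and from -0.05 to 0.20 in siSRSF2. The members had a median transcript GC content of 50.8%, against 49.5% over 11756 compared genes, with Igf2 at 55.8%, Irs2 at 56.6% and Insr lowest at 46.8%. Corrected for it, Igf2 stood at 2.22 in siSRSF1 (2.03 to 2.44). The members were also long, with a median gene length of 8877 bases against 4650, from 2 exons in Irs1 and Irs2 to 48 in Igf2r.

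**Figure D4:**
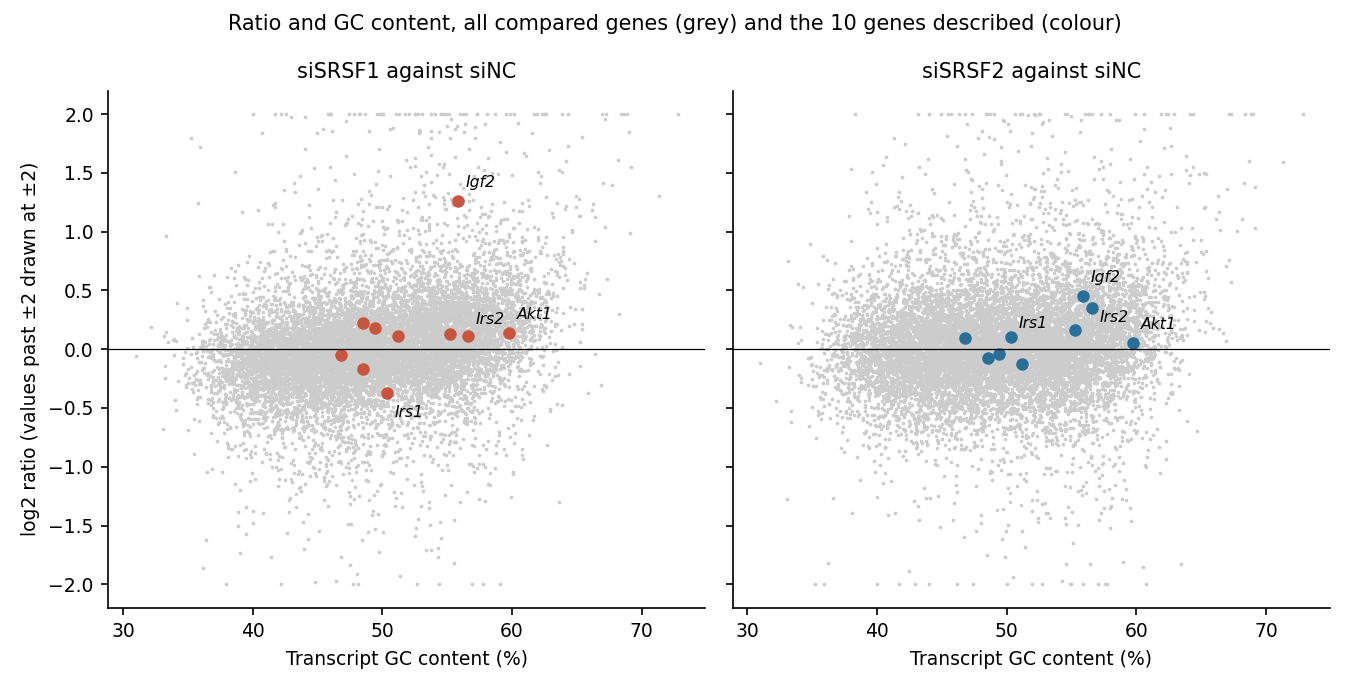
Log2 ratio to siNC against transcript GC content for all compared genes (grey) and the 10 genes described (colour, 4 of them named), with values past ±2 drawn at the edge and Grb10 left out on the right. Igf2 lies at a log2 ratio of 1.26 in siSRSF1 and 0.45 in siSRSF2, and Akt1 has the highest GC content of the 10.

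The rest of the pathway was read from 9 lists of 161 other genes, of which 154 were in the table. Beside called genes, those named are the highest and the lowest of each list among genes with 100 reads or more. In siSRSF1 against siNC, 124 were compared, with a median log2 ratio of 0.01. Of these, 0 were called higher and 1 lower, beside 2.4% and 1.2% of all genes compared. The called gene was Mest, an imprinted gene, with 23 and 9 reads (0.356, 0.140 to 0.770). Mest entered the comparisons with siNC only through the 23 reads of siNC, so a call could only be lower, and with a minimum of 100 reads 0 of these genes were called in siSRSF1. Dlk1, an imprinted gene of a Notch-like membrane protein, had 95984 and 58402 reads, a ratio of 0.534 (0.528 to 0.539) that GC correction put at 0.510. Among lists, the PI3K subunits and phosphatases had the lowest median, -0.09 over 18 genes, with 12 below 1 and 6 above.

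Foxo6, a FOXO factor, had the highest ratio at 1.98 (1.63 to 2.42), which GC correction put at 1.21. Socs3, a suppressor of cytokine and insulin receptor signalling, stood at 1.72, Map2k2, the MEK2 kinase of the MAPK branch, at 1.60 and Akt1s1, an mTORC1 inhibitor that AKT phosphorylates, at 1.56. GC correction put these at 1.51, 1.34 and 1.30. Pik3r3, a regulatory PI3K subunit, stood at 0.594 (0.518 to 0.680), Trib2 at 0.603, Socs2 at 0.674, Rps6ka3, the RSK2 kinase, at 0.686 and Enpp1, a membrane inhibitor of the insulin receptor, at 0.697. Sesn3, a FOXO target, stood at 0.714, and Igfbp4, an IGF-binding protein, and Deptor, an mTOR inhibitor, both at 0.719. The highest of the remaining lists were Ptprf (1.34), Cdkn1a (1.29), Th (1.29), Ins1 (1.26) and Phlpp1, an AKT phosphatase (1.22). GC correction put Ptprf at 1.19. It moved every gene named in this paragraph toward 1 except Igfbp4 (0.675) and Ins1 (1.29).

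In siSRSF2 against siNC, 124 of the other pathway genes were compared, with a median log2 ratio of 0.10. Of these, 4 were called higher and 2 lower, beside 2.51% and 1.04% of all genes compared. Trib3, a pseudokinase reported to bind AKT, had 1118 and 3293 reads, a ratio of 2.47 (2.31 to 2.65). Eif4ebp1, a translation repressor that mTORC1 phosphorylates, had 804 and 2199 reads, a ratio of 2.30 (2.12 to 2.49). Grb14, an adaptor of the Grb10 family that inhibits the insulin receptor, had 318 and 846 reads, a ratio of 2.23 (1.96 to 2.55). The fourth, Foxo6, stood at 2.04 (1.69 to 2.49) and lost its call on GC correction (1.29). The lower genes were Mest (23 and 4 reads, 0.163, 0.0367 to 0.427) and Pik3cd, a PI3K catalytic subunit (36 and 21 reads, 0.496, 0.272 to 0.862), both from few reads.

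Among lists, ligands and binding proteins had the highest median in siSRSF2, 0.47 over 4 compared genes. FOXO factors and targets came next, with 0.28 over 16 compared genes, 14 above 1 and 2 below. Their intervals lay above 1 for 11 and below 1 for 1 gene, beside 28.1% and 25.4% of all genes compared. Fbxo32, a ubiquitin ligase gene, stood at a log2 ratio of 0.96, Cited2 at 0.83 and Txnip at 0.39, while Sesn3 had the lowest (-0.14), and these genes other than Sesn3 were named after their values were seen. In siSRSF1 the same list had a median of 0.06, with 9 above and 7 below. The difference between these medians was not tested.

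The other extremes of siSRSF2 were Insrr, the insulin receptor-related receptor, at 1.87 (1.63 to 2.15), Map2k2 at 1.51, Ins1 at 1.43 and Ppp2r5a at 1.41. GC correction put these at 1.75, 1.31, 1.45 and 1.43. At the low end stood Rps6ka1 (0.509, which GC correction put at 0.479 and past the size rule), Rps6 (0.596), Pappa2, a protease that cleaves IGF-binding proteins (0.634), Pik3r3 and Dlk1 (both 0.714) and Gigyf2, a partner of Grb10 (0.732). Igfals (1.00) and Plagl1 (1.14) were the lowest binding protein and the highest imprinted gene.

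With siSRSF1 set directly against siSRSF2, 4.37% of all genes compared were called (1.96% higher and 2.4% lower). By the same rule 3 of 123 other pathway genes were called, all lower in siSRSF1. These were Insrr (662 reads in siSRSF2 and 255 in siSRSF1, 0.403, 0.347 to 0.466), Trib3 (0.464) and Socs2 (0.466). Igfbp4 stood at 0.506 and was past the size rule after GC correction (0.485). Deptor stood at 0.541, Txnip at 0.593 and Phlpp2 at 0.648. On the high side, Pappa2 stood at 1.73 (1.68 to 1.77), Bad, a pro-apoptotic AKT substrate, at 1.66, Hras at 1.61 and Shc1, a receptor adaptor, at 1.47. Ddc (1.28), Rps6 (1.24), Igfals (1.20) and Sod2 (1.14) led other lists, and Rps6ka3 (0.683) and Dlk1 (0.748) were lowest in theirs.

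**Figure D5:**
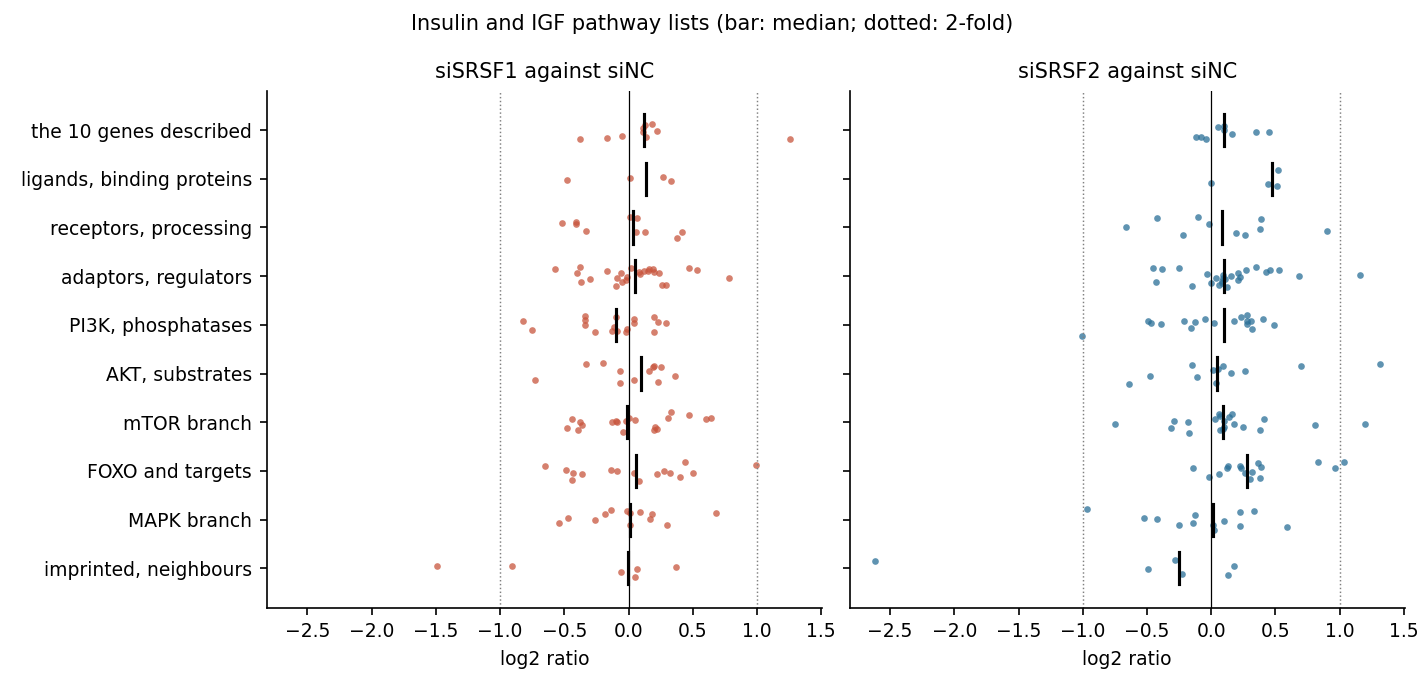
Log2 ratios to siNC of the compared genes in the 10 described and in the 9 pathway lists, 1 point per gene, with a bar at each list's median and dotted lines at 2-fold. FOXO factors and targets have a median of 0.28 in siSRSF2 and 0.06 in siSRSF1.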

How the data were processed

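Gene-level read counts for 3 MIN6 libraries were taken from the table the authors deposited. Per the file headers it holds a read count and an FPKM per library; the counts are whole numbers without normalisation, and the deposited FPKM equals count per length and column total within 0.00045 percent. Alignment used Bowtie2 2.4.2 with the mouse build mm10 (GRCm38) named, per the submitters' processing notes. The sources used here do not name the counter, the annotation release, the handling of multi-mapped reads or strandedness, and counts per gene hold no splicing information.

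The 67 lines that share a symbol were summed. Counts were scaled by TMM (edgeR 4.0.16, R 4.3.3). Ratios carry a prior of 0.5 reads and exact Clopper-Pearson intervals, and ratios between 2 genes carry exact conditional intervals (scipy 1.17.1). PCR reads are not independent molecules, so intervals cover counting error only. Each pair required 20 reads in either library; a call required 2-fold and an interval excluding 1. GC content came from the longest GENCODE M21 transcript (99.5% of symbols), and correction used lowess (fraction 0.3, statsmodels 0.14.6).

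The members and gene lists were chosen with earlier results of these data known. Named pathway genes are called genes and, per list, the highest and lowest ratio at 100 reads or more; 2 genes that this rule names are not reported here.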

Additional observations from a re-analysis of the deposited data

How the results depend on the processing

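Igf2 in siSRSF1 against siNC stayed between 2.22 and 2.43 under 3 other scalings, a prior of 2 reads and GC or length correction, and kept its call. With no minimum of reads Grb10 was called lower in siSRSF2 against siNC, so 1 member was called there in place of 0. With a minimum of 100 reads, 0 members were called in siSRSF1 against siSRSF2, since Grb10 fell out, and a 1.5-fold size rule gave 2 there, with Igf2 added. These follow from the rules themselves.

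Over all genes, no minimum gave 674 calls in siSRSF1 against siNC, 623 in siSRSF2 against siNC and 844 in siSRSF1 against siSRSF2, against 418, 412 and 511. A minimum of 100 reads gave 157, 173 and 195, and the 1.5-fold rule 1204, 1337 and 1567. Of other pathway genes, siSRSF1 against siNC had 1 call, or 2 with no minimum, 0 with 100 reads and 11 at 1.5-fold. siSRSF2 against siNC had 6, or 17 at 1.5-fold, and siSRSF1 against siSRSF2 had 3, or 5 with no minimum and 19 at 1.5-fold. Plain totals changed the split of pathway calls in siSRSF2 against siNC from 4 higher and 2 lower to 5 and 1, and GC correction to 3 and 3.

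No called member ratio changed direction (Igf2 in siSRSF1 against siNC and Grb10 in siSRSF1 against siSRSF2). Reversal was checked for called member ratios only. Akt1, not called, went from an interval above 1 in siSRSF1 against siNC (1.03 to 1.17) to one below 1 on GC correction (0.881 to 0.997). No paired analysis was possible because each group has 1 library, so none was left out. Depth limits Grb10, with 6 to 24 reads, and Foxo1.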
